A study of Mus musculus with 6 samples.

Results

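The vascular programme of the tumors was read through 10 genes, 8 made by endothelial cells (*Pecam1*, *Cdh5*, *Kdr*, *Flt1*, *Tek*, *Vwf*, *Emcn* and *Plvap*) and 2 secreted angiogenic factors (*Vegfa* and *Angpt2*). The genes were taken by name from a list, and all 10 were found among the 20076 genes of the deposited table and passed the filter on low values. Tumors were grown from the mouse ovarian cancer line ID8 Trp53-/- Brca1-/-, which lacks both named genes, by injecting it under the ovarian bursa of hosts that were either wild type (WT) or knocked out for *Tgm2*, and primary tumors were collected after 6 weeks. RNA was sequenced from 3 WT tumors and 3 *Tgm2* knockout tumors (TGM2_KO), numbered 1 to 3 in each group. Transglutaminase 2 was absent from the host and not from the injected cells, so both groups carried the same cancer cells, and the blood vessels, which are host tissue, came from WT or knockout animals. The values are normalized counts, and the columns summed to between 32316613 and 37717165. The methods give a nominal sequencing depth only, and the number of reads behind each value cannot be recovered from the normalized counts.

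Blood vessels grow when tissue releases VEGF-A, which binds the receptor tyrosine kinases VEGFR2, encoded by *Kdr*, and VEGFR1, encoded by *Flt1*. VEGFR2 carries most of the growth signal, whereas VEGFR1 binds the ligand tightly, signals weakly and also exists as a soluble form that traps it. A second system, the angiopoietins and their receptor Tie2 (*Tek*), sets vessel stability: angiopoietin-1 from cells around the vessel activates Tie2, and angiopoietin-2, stored and released by endothelium itself, mostly competes with it. In solid tumors such as ovarian cancer, VEGF-A is made by cancer cells and macrophages, and hypoxia raises its transcription.

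*Tgm2* itself was lower in every knockout tumor, at 5853, 6072 and 8157 against 14978, 12155 and 13180 normalized counts in WT tumors 1, 2 and 3. The log2 fold change (knockout minus WT) was -1.02 ± 0.22 (SE, n = 3 per group), with an adjusted p of 0.391 in limma. The tissue label names cancer cells, but every endothelial gene of the 10 was measured in every tumor, the lowest value being 195 for *Tek* in WT tumor 2. In bulk tumors, fewer endothelial cells and less RNA per endothelial cell cannot be told apart.

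None of the 10 genes was called different between the groups, where a call needs an adjusted p below 0.05 and a log2 fold change beyond 1 in limma. Over the 19667 genes tested, 20 were called higher in the knockout tumors (0.102%) and 0 were called lower (0%). At an unadjusted p below 0.05, 1 of the 10 was higher (*Cdh5*) and 1 was lower (*Vegfa*), beside 668 (3.4%) and 469 (2.38%) of all genes. The groups did not overlap, with the knockout tumors higher, for 1 of the 10 (*Emcn*) and, with the knockout tumors lower, for 2 (*Vegfa* and *Vwf*), beside 5.18% and 5.33% of all genes. The median log2 fold change of the 10 was 0.27, and that of all genes tested was -0.03. It was above 0 for 6 of the 10, beside 9309 of the 19667 genes tested. Counts above 0 in the lists below stand beside the same share. Genes of a list were measured in the same 6 tumors and some are in several lists, so such counts are not independent.

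**Figure D1:**
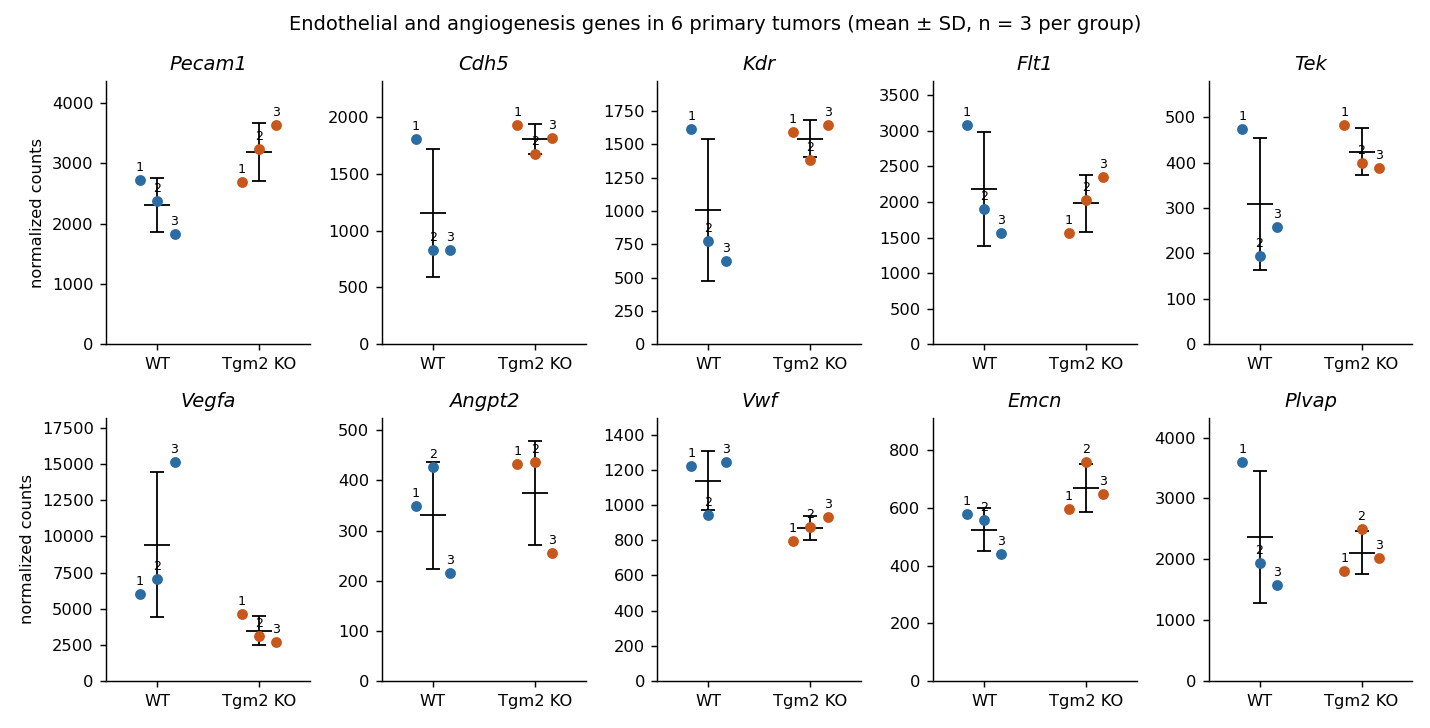
Normalized counts (vertical axes, from 0) of the 10 endothelial and angiogenesis genes in the 3 WT tumors (blue) and the 3 *Tgm2* knockout tumors (orange), each point numbered by tumor, with the mean and SD as bars. *Vegfa* reached 15173 in WT tumor 3 and was below 5000 in every knockout tumor, and WT tumor 1 was close to the knockout tumors for *Cdh5*, *Kdr* and *Tek*.

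*Vegfa* (chr17:46016993-46032369 of GRCm38, minus strand), the main growth factor for blood vessels, differed most of the 10. It was at 5981, 7074 and 15173 normalized counts in WT tumors 1, 2 and 3, and at 4599, 3131 and 2701 in the knockout tumors. The groups did not overlap, although WT tumor 3 alone held more than the other two WT tumors together. Its log2 fold change was -1.35 ± 0.37 (SE, n = 3 per group), with a 95% interval from -2.19 to -0.51, an unadjusted p of 0.00585 and an adjusted p of 0.644 in limma. Without WT tumor 3 the log2 fold change was -0.94.

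*Kdr* (chr5:75932827-75978458, minus strand), the signalling receptor, was at 1613, 777 and 628 normalized counts in WT tumors and at 1593, 1385 and 1646 in knockout tumors. WT tumor 1 was as high as the knockout tumors, and the other two WT tumors were below all of them. The log2 fold change was 0.73 ± 0.34 (SE), with an adjusted p of 0.881 in limma, and was 1.14 without WT tumor 1 and 0.46 without WT tumor 3. *Flt1* (chr5:147561604-147726011, minus strand), the ligand-trapping receptor, was at 3084, 1906 and 1562 in WT and at 1559, 2031 and 2349 in knockout tumors. The groups overlapped over most of their range, and the log2 fold change was -0.10 ± 0.29 (SE), turning to 0.18 without WT tumor 1.

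The upstream sequences of the ligand and its receptors are shown because these 3 genes differed in how they varied between tumors. Each is the 250 bases before a transcription start from RefSeq (GRCm38.p6), 5′ to 3′ on the gene's strand, and capitals mark GGAA on either strand (GGAA or TTCC), the core that ETS factors, which include the endothelial regulators Erg and Fli1, are known to bind. The RefSeq table used here held promoters for 5 of the 10 genes.
Kdr: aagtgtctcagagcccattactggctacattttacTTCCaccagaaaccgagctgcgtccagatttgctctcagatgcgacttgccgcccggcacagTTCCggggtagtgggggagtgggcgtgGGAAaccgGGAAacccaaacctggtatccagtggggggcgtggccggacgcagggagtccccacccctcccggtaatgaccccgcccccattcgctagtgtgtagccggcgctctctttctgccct
Flt1: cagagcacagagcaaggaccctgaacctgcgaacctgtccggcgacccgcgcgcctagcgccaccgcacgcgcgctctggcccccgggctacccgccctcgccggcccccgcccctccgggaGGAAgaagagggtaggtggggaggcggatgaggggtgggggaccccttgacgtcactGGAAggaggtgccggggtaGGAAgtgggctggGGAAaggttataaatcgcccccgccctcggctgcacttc
Vegfa: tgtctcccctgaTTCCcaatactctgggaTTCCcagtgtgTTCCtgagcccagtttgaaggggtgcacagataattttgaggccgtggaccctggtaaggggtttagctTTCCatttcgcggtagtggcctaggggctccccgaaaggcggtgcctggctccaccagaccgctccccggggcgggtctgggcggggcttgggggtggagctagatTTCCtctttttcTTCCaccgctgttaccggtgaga

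The *Kdr* window (chr5:75978456-75978705) and the *Flt1* window (chr5:147726012-147726261) each held 4 matches, and the window at one of the starts of *Vegfa* (chr17:46032378-46032627) held 6. These letters were common, since 93.5% of 32851 promoter windows of the same length held at least 1 match, with a median of 3. ACGTG and GCGTG, the forms of the hypoxia response element core, were searched on both strands, and at least one of them was in 38.6% of the windows. The *Kdr* window held 2 matches and the *Flt1* window 1, all of GCGTG, and neither form was among the letters of the printed *Vegfa* window. Sequence farther from these starts was not searched, so a window without a match does not show that the gene lacks such an element. The window at another *Vegfa* start (chr17:46025164-46025413) held 1 match to each form. That window lies inside the span of the gene given above, not upstream of it, so its matches are within transcribed *Vegfa* sequence. Whether they act as response elements was not tested.

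Of the 10 VEGF ligands and receptors, including *Vegfa*, *Kdr* and *Flt1*, none was called, and the median log2 fold change was 0.12. *Nrp1*, encoding neuropilin-1, a co-receptor that binds VEGF-A beside VEGFR2, was at 2335, 1422 and 942 normalized counts in WT and at 2782, 2196 and 3844 in knockout tumors. Only knockout tumor 2 fell within the WT range, and the log2 fold change was 0.97 (unadjusted p = 0.0231, adjusted p = 0.789 in limma). The lymphatic receptor gene *Flt4* was at 8787, 4401 and 4871 in WT tumors. In knockout tumors it was at 6804, 5496 and 8400, overlapping throughout. Its log2 fold change of 0.25 was 0.055 without WT tumor 2 and 0.55 without WT tumor 1. The log2 fold changes of the remaining members were 0.22 for the co-receptor gene *Nrp2*, 0.14 for *Vegfb*, -0.11 for the lymphatic growth factor gene *Vegfc*, 0.11 for *Vegfd* and -0.22 for the placental growth factor gene *Pgf*, all with overlapping groups. *Pgf* was at -1.16 with white adipocyte genes as a covariate, and *Vegfb* at 0.047 without knockout tumor 3.

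In the angiopoietin system, *Tek* (chr4:94739289-94874976, plus strand), the receptor, was at 473, 195 and 259 normalized counts in WT and at 483, 400 and 389 in knockout tumors. WT tumor 1 again stood with the knockout tumors, and the log2 fold change was 0.55 ± 0.37 (SE), with an adjusted p of 0.892 in limma. It was 0.90 without WT tumor 1 and 0.27 without WT tumor 2. *Angpt2* (chr8:18690263-18741562, minus strand), the ligand released by endothelium, was at 349, 426 and 216 in WT and at 432, 438 and 255 in knockout tumors. Tumor 3 of each group was the lowest, the groups overlapped, and the log2 fold change was 0.20 ± 0.37 (SE), or -0.083 without WT tumor 3.

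*Angpt1*, the Tie2-activating ligand made by cells around the vessel, was not one of the 10 but was measured on the same scale. A gene on the opposite strand overlaps its exons, and the reads of both could not be told apart here if the libraries were not stranded. *Angpt1* was at 157, 68.6 and 109 normalized counts in WT and at 237, 281 and 244 in knockout tumors. Every knockout tumor was above every WT tumor, with a log2 fold change of 1.25 (unadjusted p = 0.0141, adjusted p = 0.727 in limma). All 6 genes of the angiopoietin list had a log2 fold change above 0, with a median of 0.41 and none called, among them the second Tie receptor gene *Tie1* (0.41), the Tie2 phosphatase gene *Ptprb* (0.40) and *Angpt4* (0.41). Single tumors decided several of these values: *Ptprb* was at 0.070 without WT tumor 2, *Angpt4* at 0.023 and *Angpt2* below 0 without WT tumor 3. Other values rose, *Ptprb* being at 0.66 and *Angpt4* at 0.94 without WT tumor 1.

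**Figure D2:**
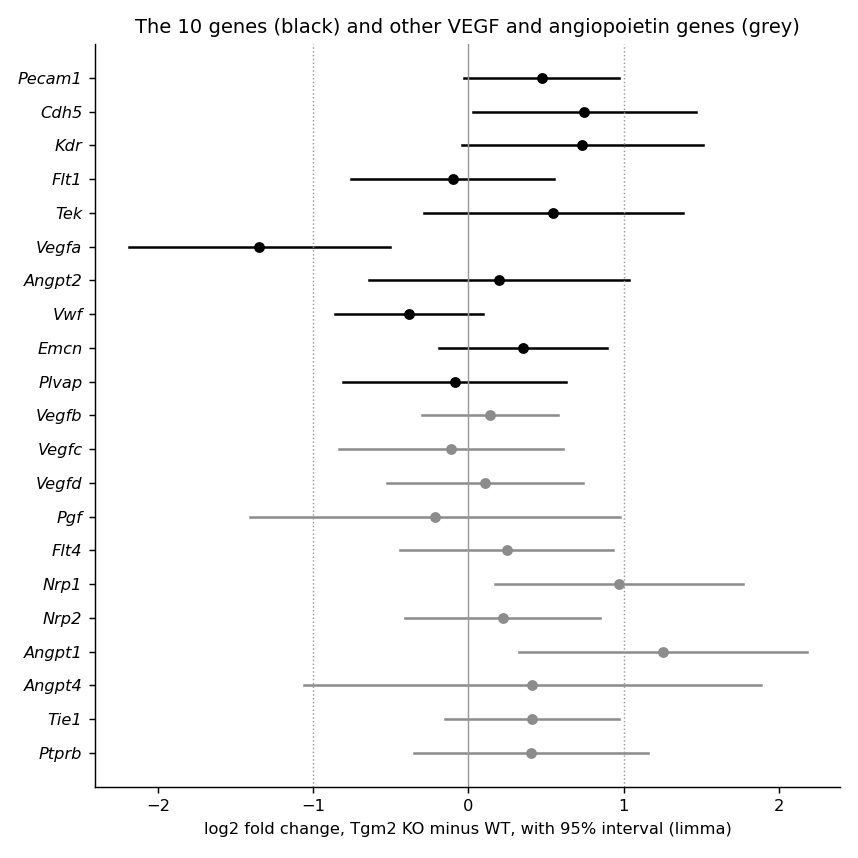
Log2 fold change, knockout minus WT, with its 95% interval from limma (horizontal axis) for the 10 genes (black) and the other VEGF and angiopoietin genes (grey); dotted lines mark a log2 fold change of 1 in either direction. The intervals of *Vegfa*, *Cdh5*, *Nrp1* and *Angpt1* did not cross 0, and those of the other genes plotted did.

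Ratios within a tumor set a ligand or receptor against its partner. The log2 ratio of *Angpt2* to *Angpt1* was 1.15, 2.62 and 0.97 in WT tumors and 0.86, 0.64 and 0.06 in knockout tumors. All knockout tumors lay below all WT tumors, with a difference of -1.06, which was -0.54 without WT tumor 2. Reads of the gene that overlaps *Angpt1* may be part of this ratio as well. For *Flt1* to *Kdr*, the trapping receptor against the signalling one, the log2 ratio was 0.93, 1.29 and 1.31 in WT and -0.03, 0.55 and 0.51 in knockout tumors. The groups were again separate, by -0.84, and the difference ranged from -0.96 to -0.65 when each tumor was left out in turn.

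The log2 ratio of *Vegfa* to *Kdr*, ligand against receptor, was 1.89, 3.19 and 4.59 in WT tumors and 1.53, 1.18 and 0.71 in knockout tumors. WT tumor 1 was the nearest to the knockout group, and the means differed by -2.08, or -1.40 without WT tumor 3. For each of the 3 ratios the two-sided exact permutation p was 0.1, the smallest that 3 tumors against 3 can give, and stayed 0.1 after Benjamini-Hochberg adjustment over the 3. The ratios are not independent of one another or of the single genes. *Kdr* enters both the *Flt1* and the *Vegfa* ratio, and *Vegfa* and *Angpt1* were each separate between the groups alone. The share of all gene pairs whose ratios separate was not computed.

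**Figure D3:**
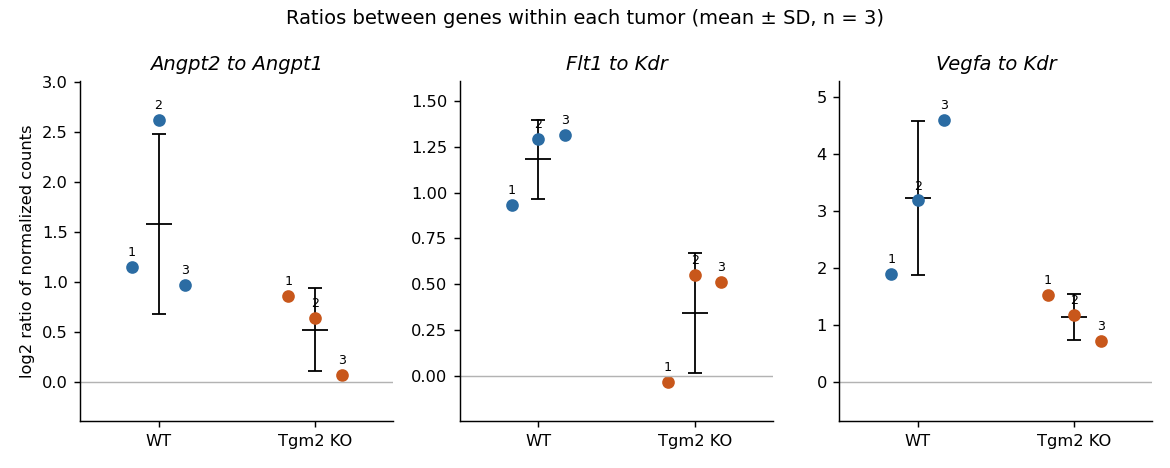
Log2 ratio of normalized counts within each tumor (vertical axes) for 3 gene pairs, in WT (blue) and *Tgm2* knockout tumors (orange), points numbered by tumor, bars showing mean and SD. All 3 knockout tumors were below all 3 WT tumors in each panel, with differences of -1.06, -0.84 and -2.08. *Kdr* is shared by the *Flt1* and *Vegfa* panels, and the share of all gene pairs that separate was not computed.

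Junction and surface genes that define endothelium were compared next. *Pecam1* (chr11:106654217-106750628, minus strand), the CD31 adhesion molecule, was at 2729, 2379 and 1830 normalized counts in WT and at 2689, 3239 and 3640 in knockout tumors. The groups met at WT tumor 1 and knockout tumor 1, and the log2 fold change was 0.47 ± 0.22 (SE), with an adjusted p of 0.881 in limma, or 0.31 without WT tumor 3. *Cdh5* (chr8:104101625-104144511, plus strand), encoding VE-cadherin of the junctions between endothelial cells, was at 1803, 827 and 827 in WT and at 1930, 1672 and 1814 in knockout tumors.

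WT tumors 2 and 3 were both well below every knockout tumor for *Cdh5*, while WT tumor 1 lay inside the knockout range. The log2 fold change of *Cdh5* was 0.75 ± 0.31 (SE), with a 95% interval from 0.03 to 1.47, an unadjusted p of 0.0428 and an adjusted p of 0.829 in limma, and was 1.12 without WT tumor 1. *Emcn* (chr3:137341067-137432185, plus strand), a sialomucin of capillary and venous endothelium, was at 578, 557 and 439 in WT and at 596, 760 and 648 in knockout tumors. Every knockout tumor was higher although WT tumor 1 and knockout tumor 1 were close, and the log2 fold change was 0.35 ± 0.24 (SE), with an adjusted p of 0.892 in limma, or 0.23 without WT tumor 3.

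*Vwf* (chr6:125546774-125686679, plus strand), the clotting protein stored in endothelial granules and platelets, was at 1223, 945 and 1247 normalized counts in WT and at 797, 876 and 932 in knockout tumors. It was lower in every knockout tumor, with a log2 fold change of -0.38 ± 0.21 (SE) and an adjusted p of 0.889 in limma. The 6 platelet and megakaryocyte genes tested had a median log2 fold change of -0.54, their sum ranging from 442 in knockout tumor 3 to 845 in knockout tumor 2 and their most abundant gene being *Pf4*; their part in the *Vwf* values was not tested. *Plvap* (chr8:71497765-71511752, minus strand), which forms the diaphragms of fenestrated vessels, was at 3606, 1940 and 1570 in WT and at 1800, 2500 and 2028 in knockout tumors. The groups overlapped, WT tumor 1 was the highest of all 6, and the log2 fold change was -0.09 ± 0.31 (SE).

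Per kilobase of the longest annotated transcript, *Vegfa* was the most abundant of the 10 in WT tumors, at 2727 ± 1455 normalized counts per kb (SD, n = 3), followed by *Plvap* at 1194 ± 546 and *Pecam1* at 672 ± 132. *Flt1*, *Cdh5*, *Emcn*, *Kdr*, *Vwf*, *Angpt2* and *Tek* followed in that order, down to 66.4 ± 31.3 per kb for *Tek*, and of these neighbours in level only *Pecam1* and *Flt1* had values that did not overlap. In knockout tumors *Plvap* came first, at 1062 ± 180 per kb, with *Vegfa* next at 1008 ± 288, and the values of these 2 overlapped. *Pecam1*, *Cdh5*, *Flt1*, *Kdr*, *Emcn*, *Angpt2*, *Vwf* and *Tek* followed, with gaps between *Pecam1* and *Cdh5*, between *Cdh5* and *Flt1*, and between *Emcn* and *Angpt2*.

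The 10 genes did not vary as one block. Across the 6 tumors the log2 values of *Cdh5* and *Kdr* had a Pearson r of 0.983 (exact permutation p = 0.0139, adjusted p = 0.143 over 45 pairs) and a Spearman rho of 0.771 (exact permutation p = 0.103, adjusted p = 0.463). Without WT tumors 2 and 3, the farthest from the median of *Cdh5*, r was 0.774. *Flt1* and *Plvap*, both highest in WT tumor 1, had r = 0.896 (exact permutation p = 0.0167, adjusted p = 0.143) and rho = 0.886 (exact permutation p = 0.0333, adjusted p = 0.375), and r was 0.680 without WT tumor 1 and knockout tumor 1.

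*Vegfa* ran opposite to *Pecam1*, with r = -0.984 (exact permutation p = 0.00278, adjusted p = 0.125) and rho = -0.943 (exact permutation p = 0.0167, adjusted p = 0.375), and r was -0.935 without WT tumor 3 and knockout tumor 3. With *Emcn*, *Vegfa* had r = -0.932 (exact permutation p = 0.00833, adjusted p = 0.143). No pair of the 45 passed 0.05 after adjustment, the points include the difference between the groups, and 3 tumors per group are too few for a correlation within a group. A reference profile was taken as the mean log2 value of *Pecam1*, *Cdh5*, *Kdr*, *Tek* and *Emcn*, a subset set with earlier results known that leaves out *Flt1*, *Vwf* and *Plvap*, whose log2 fold changes were below 0. Genes outside every list that were most like this profile over the 6 tumors were *Lss* (r = 0.994), *Cnpy3* (0.991), *Arhgef3* (0.991), *Ehd3* (0.990) and *Hspa4* (0.985), out of 12815 genes searched, of which 207 had an r above 0.9. Against the mean of all 8 endothelial genes these 5 had r between 0.911 and 0.970, and 0 of them were among the 5 most like it, which *Scfd2* led (r = 0.989), so the order depended on the genes in the profile.

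Wider lists placed the 10 genes among other vessel genes. None of the 26 endothelial identity and junction genes was called, 19 had a log2 fold change above 0, and their median was 0.35. *Sox18*, an endothelial transcription factor gene, was at 602, 483 and 394 normalized counts in WT and at 1026, 765 and 823 in knockout tumors, with no overlap and a log2 fold change of 0.83 (adjusted p = 0.682 in limma). *Sox17*, a related factor that also marks some epithelia, was at 102, 499 and 3341 in WT tumors. It was at 539, 558 and 113 in knockout tumors. Its log2 fold change of -0.77 was 0.52 without WT tumor 3, -0.017 without knockout tumor 3 and -1.99 without WT tumor 1.

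Among 9 Notch genes, which govern the choice between sprouting and stalk cells, 0 were called and the median was 0.03. The endothelial receptor gene *Notch4* was at 269, 193 and 329 normalized counts in WT and at 357, 439 and 569 in knockout tumors, which did not overlap (log2 fold change 0.79, adjusted p = 0.826 in limma). *Hey2*, a Notch target gene, had the larger log2 fold change, 0.84, through 207 in knockout tumor 1 against 33.4 to 54.0 in the other 5, and was 0.097 without that tumor, 1.37 without knockout tumor 3 and 2.48 with the adipocyte covariate. The most abundant gene, the Notch transcription factor gene *Rbpj*, overlapped at 0.03. The 10 tip cell genes, which mark the leading cells of sprouts, had a median of 0.26 with none called. *Aplnr*, the receptor of the vessel growth peptide apelin, was the member with the largest change, at 746, 415 and 195 in WT and at 980, 852 and 910 in knockout tumors (log2 fold change 1.21, adjusted p = 0.794 in limma), but 0.71 without WT tumor 3. The basement membrane gene *Nid2* was at 0.92, or 0.31 without WT tumor 3, and the most abundant gene, the netrin receptor gene *Unc5b*, at -0.02.

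Arterial genes had a median of -0.0028 over 8 genes and venous and activated endothelial genes a median of 0.07 over 8, with none called in either list. The arterial list held *Sox17*, the kinase gene *Bmx* at -0.72 (-0.38 without WT tumor 3) and its most abundant gene, the chemokine gene *Cxcl12*, at 0.03. *Icam1*, a leukocyte adhesion molecule that other cells also make, was at 6393, 6426 and 4489 normalized counts in WT and at 2962, 3904 and 3921 in knockout tumors, lower in every knockout tumor (log2 fold change -0.67, adjusted p = 0.736 in limma). *Selp*, the P-selectin adhesion gene of venous endothelium and platelets, was on the other side at 0.52, with overlapping groups, and was 0.17 without WT tumor 2. The 6 genes of high endothelial venules, the vessels through which lymphocytes enter lymphoid tissue, had a median of 0.07, with *Chst2*, a sulfotransferase gene, at 0.95 and the chemokine gene *Ccl21a* at -0.49, which ran from -0.99 without knockout tumor 1 to -0.087 without knockout tumor 3. *Chst2* was at 1.76 with the adipocyte covariate. Of 7 lymphatic genes, *Lyve1*, a hyaluronan receptor also found on tissue macrophages, was at 226, 202 and 193 in WT and at 540, 719 and 352 in knockout tumors (log2 fold change 1.31, adjusted p = 0.566 in limma), while *Prox1*, the lymphatic master regulator, had a log2 fold change of -0.70 with 245 in WT tumor 3 and at most 122 elsewhere. The most abundant lymphatic gene, *Pdpn*, encoding podoplanin, was at -0.18.

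Capillary lipid uptake genes had the highest median of the vessel lists, 0.69 over 8 genes, all above 0 and none called. *Cd36*, a fatty acid transporter of capillaries, adipocytes and macrophages, was at 1995, 1465 and 672 normalized counts in WT and at 2540, 8782 and 5149 in knockout tumors, with no overlap (log2 fold change 1.96, adjusted p = 0.587 in limma). With the mean log2 value of white adipocyte genes as a covariate its log2 fold change was 0.17. That covariate was 8.42 to 9.17 in WT and 9.70 to 11.5 in knockout tumors, without overlap, so values fitted with it, here and for other genes, cannot tell the covariate and the group apart. *Fabp4*, a fatty acid binding protein gene of the same cells, was at 3559, 6353 and 2987 in WT tumors. It was at 5817, 28004 and 12365 in knockout tumors, overlapping at WT tumor 2 and knockout tumor 1. The most abundant gene, the lipoprotein lipase gene *Lpl*, had a log2 fold change of 0.48. *Lpl* was at 0.27 without WT tumor 3 and 0.76 without knockout tumor 1. *Cd36*, *Fabp4* and *Lpl* are also made by adipocytes, and the part of fat in these values was not tested.

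Mural cell genes, of the pericytes and smooth muscle that wrap vessels, had a median of -0.36 over 13 genes, none called. They did not move together, with 4 above 0 and 9 below, from -1.70 to 0.61. The genes named next are muscle genes and do not stand for the pericyte genes of the list. *Des*, the muscle intermediate filament, was at 13117, 7629 and 4974 normalized counts in WT and at 6634, 2304 and 944 in knockout tumors (log2 fold change -1.70, adjusted p = 0.818 in limma). It was -1.02 without knockout tumor 3 and -0.21 with the adipocyte covariate. *Acta2*, the most abundant of the list, and *Myh11* were both high in tumor 1 of each group, *Myh11* at 11171 and 9608 there and at most 4148 in the other 4 tumors. Vascular basement membrane genes had a median of 0.34 over 9 genes, and the laminin-binding nidogen gene *Nid1* a log2 fold change of 0.86 (adjusted p = 0.825 in limma), or 0.49 without WT tumor 3. The most abundant, the collagen IV gene *Col4a1*, was at 0.36.

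Outside the VEGF and angiopoietin systems, 12 other angiogenic factors had a median of -0.08 and none was called. *Igf1*, a growth factor gene, was at 1461, 1384 and 546 normalized counts in WT and at 2035, 3531 and 2211 in knockout tumors, without overlap (log2 fold change 1.28, adjusted p = 0.699 in limma). Its log2 fold change was 0.82 without WT tumor 3 and 0.26 with the adipocyte covariate. *Ptn*, encoding the growth factor pleiotrophin, ran the other way at -1.12, from 378, 1785 and 1953 in WT to 691, 690 and 266 in knockout tumors, and the most abundant gene, *Ccn2*, was at 0.0043. *Ptn* ranged from -1.89 without WT tumor 1 to -0.67 without knockout tumor 3. All 7 angiogenesis inhibitors had a log2 fold change above 0, with a median of 0.23, the largest being 0.70 for *Serpinf1*, which encodes PEDF, and the most abundant gene, *Thbs1*, encoding thrombospondin-1, at 0.57. *Serpinf1* was at 0.37 without WT tumor 3 and 0.071 with the adipocyte covariate, and *Thbs1* at 0.22 without WT tumor 3 and 1.11 without WT tumor 1. Hypoxia response genes, a program that *Vegfa* is part of, had a median of -0.21 over 12 genes with none called, 5 above 0 and 7 below. *Car9*, carbonic anhydrase IX, was at 289, 231 and 353 in WT and at 184, 123 and 120 in knockout tumors, lower in every knockout tumor (log2 fold change -1.03, adjusted p = 0.759 in limma), or -0.28 with the adipocyte covariate. *Ankrd37*, another hypoxia target gene, was at -0.93 with 809 in WT tumor 3, and at -0.34 without that tumor, whereas the most abundant gene of the list, *Ldha*, overlapped at -0.14. With the covariate *Ankrd37* was at -1.74 and *Ldha* at -1.17.

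**Figure D4:**
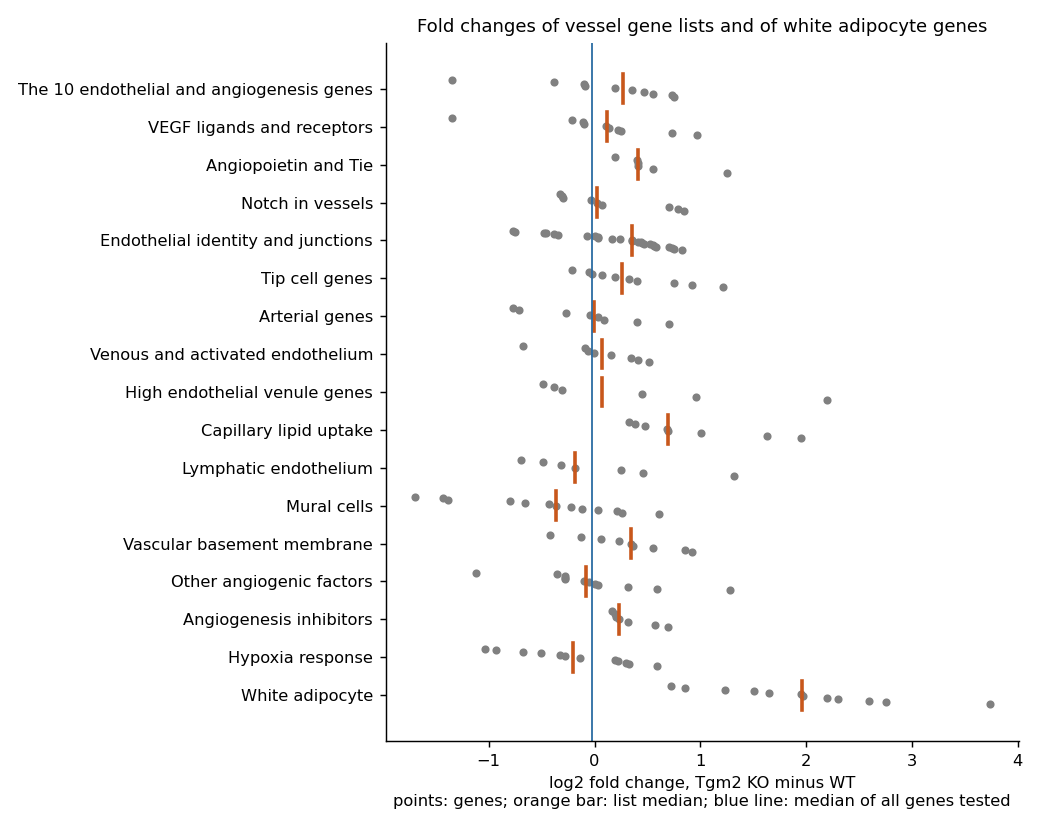
Log2 fold change, knockout minus WT (horizontal axis), of each gene tested (points) in the 10-gene set, 15 vessel-related lists and the white adipocyte list, with the list median (orange bar) and the median of all genes tested (blue line, -0.03). Capillary lipid uptake had a median of 0.69, mural cells -0.36 and white adipocyte genes 1.96.

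Genes of other tissues differed between the tumors and are set beside the endothelial values. The mean log2 value of all 8 endothelial genes was 10.6, 9.87 and 9.77 in WT tumors 1, 2 and 3, and 10.3, 10.4 and 10.4 in the knockout tumors. WT tumor 1 was thus the highest of the 6, and the groups overlapped. *Cyp11a1*, which starts steroid synthesis, was high in tumor 1 of both groups, at 8648 in WT tumor 1 and 22480 in knockout tumor 1, against 158 to 209 in the other 4, and *Hsd3b1* at 5526 and 25704 against 1.08 to 68.0. Of 9 granulosa and luteal genes, 6 were highest in tumor 1 of both groups, but *Star*, the most abundant of them, was at 5987, 8970 and 4223 in WT and at 5340, 5450 and 7639 in knockout tumors. The corpus luteum is a densely vascular ovarian tissue, and the part of these genes in the endothelial values was not tested. With the 2 tumors in which *Cyp11a1* and *Hsd3b1* were both above 1000 left out, *Kdr* had a log2 fold change of 1.11, *Cdh5* 1.07, *Pecam1* 0.72, *Vegfa* -1.83, *Flt1* 0.34 and *Plvap* 0.37, and none of the 10 was called.

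*Epcam*, an epithelial adhesion gene, was at 8047 normalized counts in WT tumor 3, the tumor with the most *Vegfa*, and between 90.5 and 1307 in the other 5. Hemoglobin was highest in WT tumor 2, where *Hbb-bs* was at 26293 against 645 to 6254 elsewhere. Leukocyte genes had a median of 0.50 over 6 and macrophage genes 0.59 over 6; the most abundant macrophage gene, *C1qa*, was at 15742, 11663 and 6142 in WT and at 7427, 23881 and 17156 in knockout tumors. Median log2 fold changes were 0.67 for 6 fibroblast genes and 0.11 for 5 mesothelial genes. They were -0.44 for 5 epithelial genes and 0.88 for the 8 granulosa and luteal genes tested. The epithelial list held *Epcam* beside keratin genes, and its median was the value of *Epcam* itself. None was called in these lists, and how much any of them contributed to the vessel genes was not tested.

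The leading genes of these lists are given as the range over the 3 tumors of each group, in normalized counts. *Cd52*, a leukocyte surface gene, was at 1544 to 2593 in WT and 3197 to 6507 in knockout tumors, and the scavenger receptor gene *Cd163* of macrophages at 53.8 to 121 and 180 to 420, both without overlap. *Upk1b*, of mesothelium, at 745 to 1243 and 407 to 613, and the keratin gene *Krt8*, at 14387 to 21948 and 10373 to 14318, were lower in every knockout tumor.

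The groups overlapped for the other leading genes, which were *Cd53*, *Laptm5* and *Mrc1* among immune genes, *Lrrn4* and *Wt1* of mesothelium, *Krt7* and *Krt18* among keratins, *Lum*, *Dpt* and *Col1a1* of fibroblasts, *Amh* and *Hsd3b1* of ovarian tissue, *Hbb-bt* and *Hbb-bs* of red blood cells, and *Itga2b*, *Gp1ba* and *Pf4* of platelets. *Amh*, which granulosa cells make, was at 129 to 302 in WT and 155 to 2766 in knockout tumors, the highest value being in knockout tumor 1.

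White adipocyte genes were the list that differed most, with all 12 above 0, a median of 1.96 and 1 called, the adipokine gene *Lep* (log2 fold change 3.74, adjusted p = 0.0393 in limma). Its adjusted p ranged from 0.0283 to 0.478 over the alternatives. The call was lost whenever 1 tumor was left out and with the luteal-gene tumors left out, the adipocyte covariate, the replicate block, quantile normalization, no variance trend or a pseudocount of 5, while the log2 fold change was 2.94 with the covariate and 3.35 to 3.96 with 1 tumor left out. The list summed to 12375, 22889 and 12221 normalized counts in WT and to 19790, 102638 and 48794 in knockout tumors, its most abundant gene being *Cfd*, and no gene of it was listed at 0. *Plin1*, which coats fat droplets and defines adipocytes, was at 336, 512 and 125 in WT and at 1107, 3501 and 1730 in knockout tumors, without overlap. With the mean of the list as a covariate, which did not overlap between the groups, the log2 fold change of *Vegfa* was -0.59, of *Pecam1* 0.16 and of *Emcn* -0.03, while *Cdh5* was 1.16 and *Tek* 1.17, and no member of the 10 was called.

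**Figure D5:**
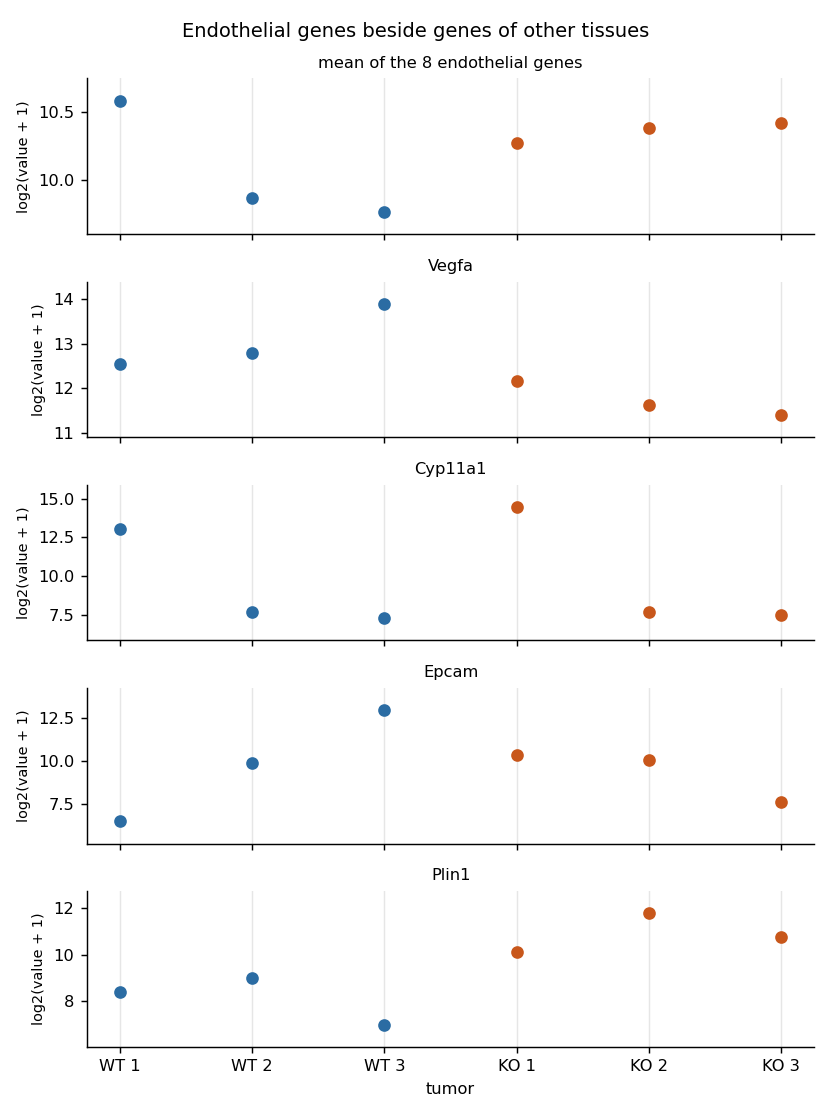
Log2(value + 1) in each tumor (vertical axes, not from 0; WT blue, *Tgm2* knockout orange) of the mean of the 8 endothelial genes, *Vegfa*, the steroidogenic gene *Cyp11a1*, the epithelial gene *Epcam* and the adipocyte gene *Plin1*. Tumor 1 of each group was high for *Cyp11a1*, WT tumor 3 was highest for *Vegfa* and *Epcam*, and the endothelial mean was highest in WT tumor 1, at 10.6, and lowest in WT tumor 3, at 9.77.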

How the data were processed

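Poly(A) libraries of 3 WT and 3 *Tgm2* knockout tumors had been sequenced by the authors. Their notes and methods name kallisto 0.46.2 for quantification, GRCm38, and scaling by size factors. The deposited values, on a signal scale of normalized counts, are not whole numbers and do not show read depth, although the table is named TPM, and the column totals differ. Whether replicates were separate litters or batches was not given in the sources used here, so p-values take the tumors as independent. In limma the spread of a gene between these tumors was combined with that of other genes, giving 8.38 degrees of freedom in place of 4.

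Values were tested as log2(value + 1) with limma 3.58.1 (R 4.3.3; variance trend, two-sided) over 19667 genes reaching at least 1 in at least 3 tumors, with Benjamini-Hochberg adjustment; fold changes of low genes are understated on this scale. The test was checked on simulated data, but no outcome of that check is reported here. Ratios and correlations used exact permutation over tumors (scipy 1.17.1). Gene positions and transcript lengths are from GENCODE M21; per kb levels use the longest transcript. Named genes were the 10, *Tgm2*, the VEGF and angiopoietin lists and, per other list, called genes, the 2 largest changes with a mean of at least 20 and the most abundant gene; *Cyp11a1*, *Epcam* and *Hbb-bs* also served to describe the tumors, *Epcam* and *Cyp11a1* being picked after their values were seen. A result that the rule selected is not reported here. The 10 genes and all lists were chosen with earlier results of these data known. Alternatives covered pseudocounts, filters, scaling, weights, variance trend, a replicate block, an adipocyte covariate and leaving out tumors.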

Additional observations from a re-analysis of the deposited data

How the results depend on the processing

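None of the 10 endothelial and angiogenesis genes was called under any of the 18 alternatives, and 6 of the 10 kept their sign in all of them. The 3 ratios kept their sign wherever they were recomputed. Of 56 genes followed, 33 kept their sign throughout. Several alternatives could not turn a sign. The filter settings, the replicate block, no variance trend and a call without the fold change limit left the log2 fold changes as they were. The size factors, 1.002 in every tumor, left them almost unchanged. The reads behind each value could not be recovered from the normalized counts. The 95% intervals, from 3 tumors per group, are for the difference in group means and use a spread that limma moderated with other genes. They cover no variation beyond these tumors.

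The number of genes called higher, 20, was 5 with a replicate block, 4 with no variance trend, 0 with the white adipocyte covariate, 13 with the luteal-gene tumors left out (an alternative chosen after seeing the data) and 2 to 14 with each tumor left out, 2 being without WT tumor 2 and 7 without WT tumor 1. The number called lower, 0, was 1 with the luteal-gene tumors left out and 0 to 1 with each tumor left out, the 1 being without WT tumor 1. The cause of these changes in the numbers called was not tested. Deviations of same-numbered tumors from their group means correlated at -0.196, 0.284 and -0.307, and those of differently numbered tumors at -0.231 to 0.359. With so few tumors these values cannot show whether a replicate number marks a shared batch.

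Signs turned for some log2 fold changes. With the adipocyte covariate, which did not overlap between the groups and contains *Lep* itself, they were -0.083 for *Angpt2*, -0.034 for *Emcn*, 0.50 for *Bmx*, -1.004 for *Cxcl12*, 1.22 for *Ccl21a*, -0.83 for *Fabp4*, -0.47 for *Lpl*, 1.47 for *Prox1*, 1.42 for *Myh11*, 0.33 for *Acta2* and -0.81 for *Ccn2*. Values that kept their sign but moved by over 1.5 times with this covariate included -0.40 for *Flt1*, -0.40 for *Plvap*, 0.73 for *Flt4*, 1.72 for *Angpt4*, 0.85 for *Tie1*, 1.199 for *Ptprb*, 1.15 for *Selp*, -1.18 for *Icam1*, -0.75 for *Pdpn* and 1.03 for *Thbs1*. With the luteal-gene tumors left out, signs turned to 0.34 for *Flt1*, 0.37 for *Plvap*, -0.027 for *Vegfd*, 0.34 for *Unc5b*, 0.00092 for *Pdpn* and 0.029 for *Ldha*. Array quality weights gave -0.064 for *Cxcl12* and -0.041 for *Ccn2*, and quantile normalization gave -0.051 for *Ccn2*. With each tumor left out in turn the values ran from -0.31 to 0.18 for *Flt1*, -0.083 to 0.45 for *Angpt2*, -0.34 to 0.26 for *Plvap*, -0.36 to 0.050 for *Vegfc*, -0.028 to 0.27 for *Vegfd*, -0.61 to 0.30 for *Pgf*, -0.012 to 0.52 for *Nrp2*, -0.053 to 0.090 for *Rbpj*, -1.99 to 0.52 for *Sox17*, -0.28 to 0.20 for *Unc5b*, -0.34 to 0.32 for *Cxcl12*, -1.31 to 0.061 for *Prox1*, -0.47 to 0.043 for *Pdpn*, -0.075 to 0.84 for *Col4a1*, -0.17 to 0.29 for *Ccn2* and -0.38 to 0.14 for *Ldha*.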
